A study of Mus musculus with 9 samples.

Results

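The p53 target genes described here are 32 genes that the tumour suppressor p53 is known to switch on, or that set its own level. Membership goes by gene name, and the list was drawn up with earlier results of these data known. Of the 32 listed, 29 were measured by a transcript cluster, that is, a set of probes summed per gene, among the 21072 clusters on the array. Trp53, Bax and Gdf15 are not analysed here. Tp53i11 is listed by the array annotation under its mouse symbol, Trp53i11. By role, the measured genes were 6 of 7 that feed back on p53, 13 of 14 of cell death, 6 of 7 of growth arrest and 4 of 4 of DNA repair.

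The samples were 9 arrays of mouse bone marrow cells, 3 per group, although the tissue label reads blood. All donors were C57BL/6 females aged 8 weeks, given the antimetabolite 5-fluorouracil at 150 mg/kg 6 days before harvest. Lineage-negative, Sca-positive, Kit-positive cells, a fraction enriched for blood stem and progenitor cells, were sorted by magnetic columns and infected with a retrovirus that marks cells with green fluorescent protein. The empty vector (MIE) carried the marker alone, and the other vectors also carried GATA2 wild type or GATA2 R396Q, a variant of this zinc finger transcription factor of blood progenitors. Fluorescent cells were sorted after 72 h of culture. Every group, the controls included, therefore had the drug, the infection and the culture. The labels do not name the promoter of the vector, and are silent on whether replicates were separate mice, pools or cultures, so p-values measure only the spread between these samples.

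p53 is a transcription factor held low by the ubiquitin ligase Mdm2 and its partner Mdm4. DNA damage and other stress free it from them, and it then raises genes that stop the cell cycle, repair DNA, limit growth or start cell death. It also raises Mdm2, which closes a feedback loop. In blood stem and progenitor cells the pathway is known for its part in quiescence and in the loss of cells after DNA damage.

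To show where p53 could bind near these genes, the 250 bases before each annotated start site were searched for the p53 decamer, the 10-letter element of which the p53 consensus site holds 2. Sequences are those of RefSeq, build GRCm38.p6, with an entry for 24 of the 32 genes and 33 start sites. Trp53inp1, Pmaip1, Tnfrsf10b, Perp, Zmat3, Rrm2b, Ddb2 and Xpc had no entry. An exact decamer, whose pattern reads the same on both strands, lay before 9 of the 33 start sites, against 7.13% of 32851 start sites in the whole table. It lay in 9 of the 24 genes, against 8.2% of 27025 genes. These shares were not matched for the G and C content of the windows, which is given below. The stretches of the 7 measured genes with a decamer follow, written 5′ to 3′ on the strand of the gene, with the decamer in capitals and up to 10 bases on each side. In Ei24 the decamer ends at the base before the start site.
Ccng1 (chr11:40755452-40755481, minus strand): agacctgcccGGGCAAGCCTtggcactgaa
Mdm2 (chr10:117710925-117710954, minus strand): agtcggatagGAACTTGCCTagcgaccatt
Ppm1d (chr11:85311112-85311141, plus strand): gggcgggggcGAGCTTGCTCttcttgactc
Aen (chr7:78895927-78895956, plus strand): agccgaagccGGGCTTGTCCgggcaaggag
Ei24 (chr9:36797335-36797354, minus strand): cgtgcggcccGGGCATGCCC
Sesn1 (chr10:41887256-41887285, plus strand): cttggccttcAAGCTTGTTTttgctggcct
Polk (chr13:96519399-96519428, minus strand): catgtagcttGAACTAGCCTcaaacttatt

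Ccng1 alone among the 24 genes also held the full site of 20 letters, 2 decamers side by side with at most 2 letters off the pattern, which 0.661% of all start sites held. Its 250 bases (chr11:40755287-40755536, minus strand) are shown whole, with the full site in capitals, because this was the only full site in the windows searched. Sequence outside these windows was not searched.
Ccng1: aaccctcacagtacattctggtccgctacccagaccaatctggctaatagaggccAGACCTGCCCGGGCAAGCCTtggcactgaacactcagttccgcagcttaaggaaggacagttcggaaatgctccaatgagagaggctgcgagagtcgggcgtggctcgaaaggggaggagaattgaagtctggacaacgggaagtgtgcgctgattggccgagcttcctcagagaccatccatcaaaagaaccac

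Letters of a GATA site (AGATAA on either strand, where the first A may be T and the last may be G) lay before 3 of the 33 start sites, against 26.5% of all start sites. The measured genes with such letters were Mdm4 and Fbxw7, at 1 start site each, shown with the GATA letters in capitals. The windows of these genes were rich in G and C, with a median of 63.2% against 52.4% over all start sites, and the GATA letters are mostly A and T. A match is a description of letters, and neither it nor its absence says anything of binding.
Mdm4 (chr1:133025507-133025532, minus strand): aaatagaaaaCTATCTctgtctgacc
Fbxw7 (chr3:84863964-84863989, plus strand): gaaatctcagCTATCAaggagacttt

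As a check of the labels, the log2 signal of Gata2 was 9.87, 9.67 and 9.65 with empty vector, 11.5, 11.24 and 10.94 with wild type and 10.65, 10.72 and 10.53 with R396Q. All arrays of both GATA2 groups lay above the empty vector arrays. The difference between R396Q and empty vector was 0.90 (SE 0.14, limma adjusted p = 0.0394), and with 1 array left out it held in the fits without wild type 1 or 3 but in no other (adjusted p up to 0.155). Median log2 signals per array were 6.06 to 6.19, and no array stood apart in them. Over 9 stem and progenitor markers, which stand for the sorted cells themselves, the mean log2 signal was 9.12 to 9.34 with empty vector, 8.30 to 8.44 with wild type and 9.07 to 9.49 with R396Q. With wild type 4 of the 9 fell and 1 rose against empty vector (8.99% of all clusters passed), with a median of -0.87. The differences ran from -4.63 to 3.58. With R396Q 2 of the 9 rose and 1 fell (1.23% of all clusters passed), with a median of -0.2. Those differences ran from -1.81 to 3.25. Kit had means of 12.27, 9.46 and 10.47 and Cd34 of 13.21, 8.58 and 12.80 in the same order of groups, while Procr, at 5.16 with empty vector, lay below the median of every array. Ly6a, the gene of the sort marker Sca, is not analysed here. Markers of other blood cells also shifted. The mean log2 signal over 11 erythroid markers was 6.36 to 6.65 with empty vector, 9.29 to 10.28 with wild type and 6.44 to 6.78 with R396Q. Over 9 megakaryocyte markers it was 8.15 to 8.72, 11.12 to 11.67 and 8.31 to 9.01, and over 12 neutrophil markers 11.21 to 14.19, 7.25 to 10.14 and 10.02 to 13.33, in the same order. Over 12 monocyte and macrophage markers it was 8.95 to 10.60, 6.91 to 7.52 and 7.52 to 8.12, and over 11 mast cell and basophil markers 9.20 to 10.87, 11.76 to 13.51 and 10.82 to 11.42. With wild type against empty vector, 8 of 11 erythroid, 8 of 9 megakaryocyte and 6 of 11 mast cell and basophil markers rose, and 5 of 12 neutrophil (10 with the replicate number as a block) and 7 of 12 monocyte and macrophage markers fell. With R396Q against empty vector, 4 of 12 monocyte and macrophage and 1 of 12 neutrophil markers fell. No erythroid, megakaryocyte or mast cell and basophil marker passed. With the block 6 monocyte and macrophage and 2 neutrophil markers fell, and 1 megakaryocyte and 2 mast cell and basophil markers rose. The mean over 10 lymphoid markers was 4.92 to 5.81 on the 9 arrays, and over 11 stromal and endothelial markers 5.83 to 6.34. Single markers lay outside these ranges, with averages of 4.18 for Cd3e, 9.34 for Pdgfrb and 10.74 for Pecam1. Of the 11, 1 was higher with R396Q than with empty vector (1.23% of all clusters passed). Against wild type, 1 of the 11 was also higher with R396Q (5.75% passed). In such bulk RNA, fewer cells of a type and less RNA per cell cannot be told apart. The part of these shifts in the results below was not tested.

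With GATA2 wild type, more p53 target genes rose than fell. By role, 3 of 6 arrest, 1 of 6 feedback, 1 of 13 death and 1 of 4 repair genes rose, where 4.64% of all clusters did. In turn 1 death and 1 repair gene fell, where 4.35% of all clusters did. With 4 to 13 genes in a role, these counts do not rank the roles. Trp53inp1, Phlda3, Btg2, Zmat3, Foxo3 and Polk rose against empty vector, by 1.42-fold to 4.67-fold. Dram1 and Xpc fell, by 2.6-fold and 1.54-fold. The other 21 measured members did not pass the test, among them Mdm2 and the death genes Bbc3 and Pmaip1. With R396Q, no member passed the test against empty vector, where 1.23% of all clusters did, so this count is no result about the members. All 6 genes that rose with wild type had a difference of 0.14 or less between R396Q and empty vector on the log2 scale.

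In counts, 6 of 29 members rose with wild type (4.64% of all clusters did) and 2 fell (4.35%), so that 27.6% of the members passed, against 8.99% of all clusters. The test was limma over all 9 arrays with Benjamini-Hochberg adjustment over all 21072 clusters and 0.05 as the threshold. The median difference was 0.25 on the log2 scale over the members and -0.01 over all clusters. Arrays with the same replicate number deviated together, and with the number as a block 10 members rose and 3 fell, while 17.4% of all clusters passed. The count dropped to 5 in each of the 6 fits that left out an array numbered 1 or 3. The arrays of the groups did not overlap in 11 members that were higher with wild type and 4 that were lower, 51.7% of the members against 22.6% of all clusters.

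**Figure D1:**
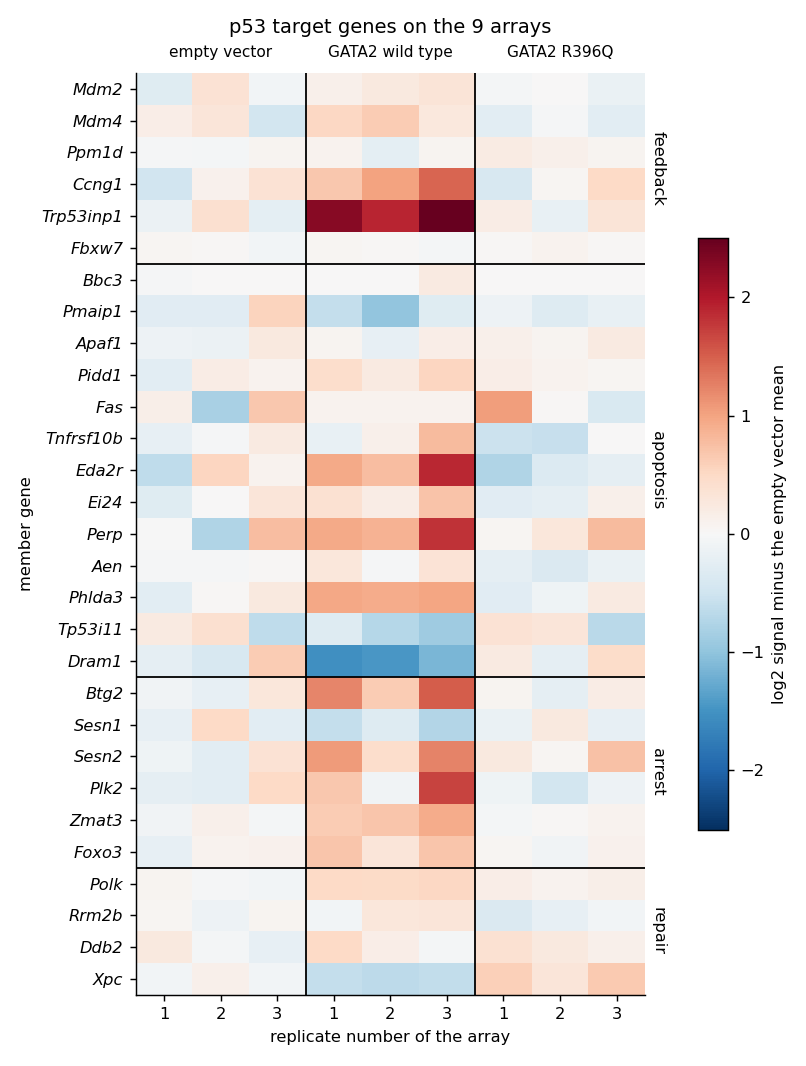
Heat map of the 29 measured p53 target genes (rows, by role) on the 9 arrays (columns, by group and replicate number), with colour for the log2 signal minus the mean of the 3 empty vector arrays. Trp53inp1 is the darkest row with GATA2 wild type, Dram1 and Xpc are blue there, and the R396Q columns stay pale apart from Xpc and single arrays of some genes.

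Among the feedback genes, Trp53inp1 moved most. It encodes a stress-induced protein that binds p53 and aids its activity. Its log2 signal was 7.44, 7.99 and 7.35 with empty vector, 9.87, 9.49 and 10.08 with wild type and 7.78, 7.4 and 7.91 with R396Q. All wild type arrays lay above all others, and the empty vector and R396Q arrays were intermixed. The rise with wild type was 4.67-fold (2.22, SE 0.23, 95% confidence interval 1.67 to 2.77, limma adjusted p = 0.00229), and within the replicate numbers it was 2.43, 1.5 and 2.74. It passed the test without any 1 array. R396Q differed from empty vector by 0.10 (interval -0.45 to 0.65).

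Ccng1 encodes cyclin G1, which recruits a phosphatase to Mdm2. Its log2 signal was 13.60, 14.18 and 14.43 with empty vector and 14.74, 15.08 and 15.52 with wild type. With R396Q it was 13.66, 14.12 and 14.57, which overlapped with empty vector throughout. In all 3 groups array 1 was lowest and array 3 highest, and within the numbers wild type stood 1.13, 0.89 and 1.10 above empty vector. The difference of 1.04 (SE 0.32) did not pass the test (limma adjusted p = 0.107) and passed with the replicate block (adjusted p = 0.0013). R396Q, in turn, differed from empty vector by 0.05, -0.07 and 0.14 within the numbers.

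Mdm2 is the main p53 target that turns p53 off. Its log2 signal was 9.80, 10.47 and 10.05 with empty vector, 10.23, 10.35 and 10.43 with wild type and 10.06, 10.12 and 9.94 with R396Q. The empty vector arrays overlapped with both other groups, and empty vector 2 lay above every other array. Every R396Q array lay below every wild type array, a difference of -0.3 that did not pass the test (limma adjusted p = 0.417). The difference of wild type from empty vector was 0.23 (interval -0.15 to 0.62, limma adjusted p = 0.463). Mdm4, which binds and inhibits p53, had 9.54, 9.68 and 8.91 with empty vector, 9.89, 10.01 and 9.63 with wild type and 9.10, 9.34 and 9.11 with R396Q. Its difference with wild type was 0.47 (interval -0.03 to 0.96, adjusted p = 0.252), and empty vector 3 was the lowest of the 9 arrays. Ppm1d, a phosphatase that shuts off p53 signalling, and Fbxw7, a ubiquitin ligase subunit, differed by -0.03 and 0.01 with wild type. Their intervals were -0.25 to 0.19 and -0.09 to 0.11. Fbxw7 took only 6 distinct values on the 9 arrays.

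Of the arrest genes, 3 of 6 rose with wild type (4.64% of all clusters did) and none fell (4.35%). Btg2, an antiproliferative gene, had 5.30, 5.17 and 5.66 with empty vector, 6.61, 6.01 and 6.89 with wild type and 5.44, 5.15 and 5.57 with R396Q. The wild type arrays lay above all others. The rise was 2.18-fold (1.13, SE 0.25, limma adjusted p = 0.0343), which with 1 array left out held in the fit without wild type 2 but in no other (adjusted p up to 0.107). It was also lost with only the 6 arrays compared (adjusted p = 0.109) and with array weights. The empty vector and R396Q means, 5.38 and 5.39, lay below the median of every array.

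Zmat3, a zinc finger RNA-binding protein that restrains growth, had 6.61, 6.83 and 6.66 with empty vector, 7.33, 7.39 and 7.62 with wild type and 6.65, 6.72 and 6.79 with R396Q. The gap between wild type and the rest was larger than the spread within any group. The rise was 1.68-fold (0.75, SE 0.09, limma adjusted p = 0.00402) and passed without any 1 array. Foxo3, a transcription factor of quiescence that is also a p53 target, had 8.69, 8.97 and 9.0 with empty vector, 9.58, 9.19 and 9.58 with wild type and 8.93, 8.80 and 9.0 with R396Q. It rose 1.48-fold (0.56, SE 0.13, limma adjusted p = 0.0462). With 1 array left out that call held in the fit without wild type 2 but in no other (adjusted p up to 0.135). It was also lost with only the arrays compared (adjusted p = 0.137) and with array weights.

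The sestrins, which dampen growth signalling through mTORC1, differed from empty vector in opposite directions. Sesn2 had 8.38, 8.23 and 8.86 with empty vector, 9.56, 8.92 and 9.73 with wild type and 8.73, 8.54 and 9.22 with R396Q. Sesn1 had 9.08, 9.78 and 9.02 with empty vector, 8.69, 8.96 and 8.56 with wild type and 9.13, 9.54 and 9.08 with R396Q. In neither gene did the wild type arrays overlap with the empty vector arrays. The differences, 0.91 (SE 0.28) and -0.56 (SE 0.23), did not pass the test (limma adjusted p = 0.104 and 0.223). With the replicate block both passed (adjusted p = 0.00601 and 0.0162). Plk2, a kinase that p53 induces, had 6.12, 6.08 and 6.84 with empty vector and 7.03, 6.26 and 8.04 with wild type, which overlapped (0.76, SE 0.44, adjusted p = 0.381).

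**Figure D2:**
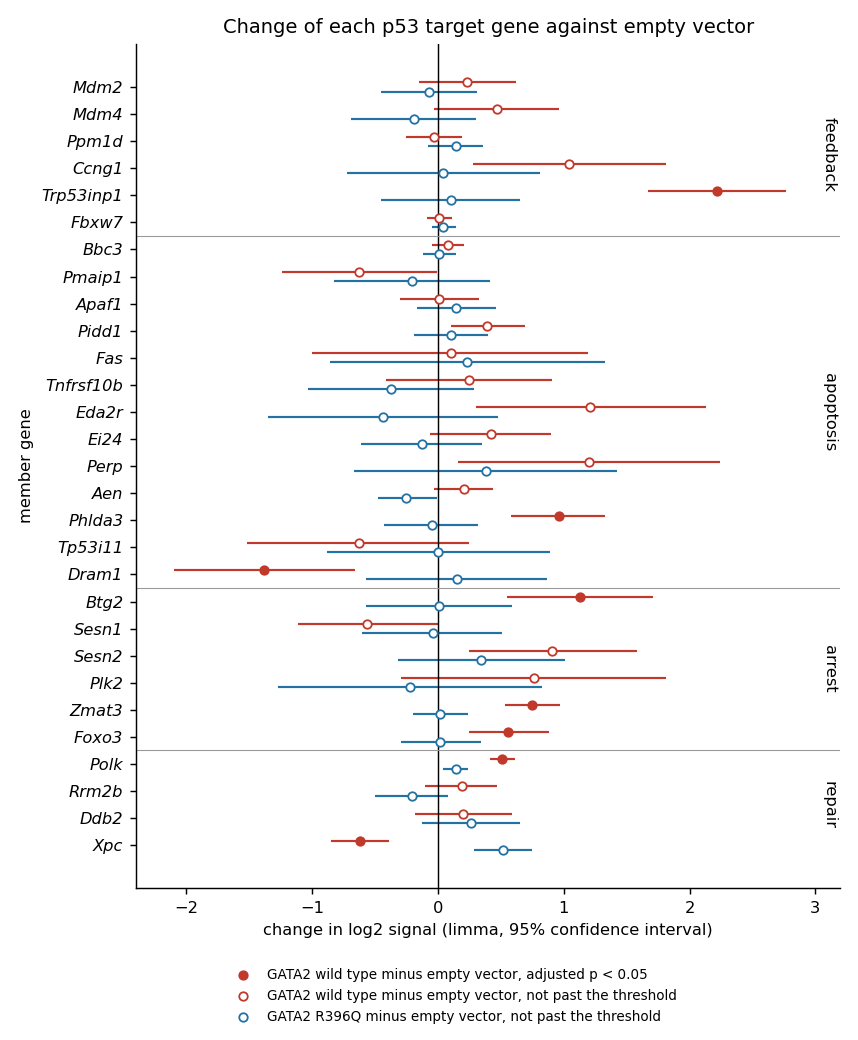
Difference in log2 signal from empty vector for each measured p53 target gene (rows, by role), with GATA2 wild type in red, R396Q in blue, 95% confidence intervals from limma as bars and filled points for adjusted p under 0.05. The 8 filled points are all of wild type, from -1.38 (Dram1) to 2.22 (Trp53inp1), and the R396Q points lie between -0.44 (Eda2r) and 0.52 (Xpc).

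Of the 13 death genes, 1 rose (4.64% of all clusters did) and 1 fell (4.35%) with wild type. Phlda3, which blocks survival signalling through Akt, had 8.29, 8.58 and 8.79 with empty vector, 9.51, 9.48 and 9.53 with wild type and 8.27, 8.45 and 8.77 with R396Q. The wild type arrays were close together and above all others. The rise was 1.94-fold (0.96, SE 0.16, limma adjusted p = 0.0126) and passed without any 1 array. Dram1, a lysosomal protein that links p53 to autophagy, had 7.63, 7.45 and 8.5 with empty vector, 6.32, 6.40 and 6.72 with wild type and 8.08, 7.63 and 8.32 with R396Q. It fell 2.6-fold with wild type (-1.38, SE 0.30, limma adjusted p = 0.0357). With 1 array left out the call held without empty vector 2 or R396Q 2 but in no other fit (adjusted p up to 0.111), and it was lost with only the arrays compared (0.0948). The neutrophil and monocyte markers given above were lower on the same wild type arrays, and their part in the fall of Dram1 was not tested.

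The death genes Bbc3, Pmaip1, Apaf1 and Pidd1 did not pass the test, and Bax is not analysed here. Bbc3, which encodes the BH3-only protein Puma, had 5.83, 5.86 and 5.86 with empty vector, 5.86, 5.86 and 6.07 with wild type and 5.86 on all R396Q arrays. It took only 3 distinct values, and its means of 5.85 to 5.93 lay below the median of every array, so that Bbc3 is poorly measured here. Pmaip1, which encodes the BH3-only protein Noxa, had 7.71, 7.71 and 8.55 with empty vector, 7.4, 7.01 and 7.68 with wild type and 7.87, 7.67 and 7.81 with R396Q. Wild type lay below empty vector with a narrow gap and no overlap, and the difference of -0.63 (SE 0.26) did not pass the test (limma adjusted p = 0.220). Apaf1, the core of the apoptosome, differed by 0.01 (interval -0.30 to 0.33). Pidd1, a scaffold for caspase 2, had 7.28, 7.73 and 7.62 with empty vector and 7.97, 7.77 and 8.07 with wild type (0.39, SE 0.13, adjusted p = 0.114).

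Among the death receptors and membrane proteins, several were higher with wild type without passing the test. Eda2r, a receptor of the tumour necrosis factor family, had 5.71, 6.87 and 6.43 with empty vector, 7.29, 7.12 and 8.23 with wild type and 5.58, 5.99 and 6.12 with R396Q. Wild type lay above all other arrays (1.21 against empty vector, SE 0.39, limma adjusted p = 0.115). Perp, a membrane protein of cell junctions, had 8.03, 7.29 and 8.81 with empty vector and 8.98, 8.90 and 9.85 with wild type. Its difference of 1.2 (SE 0.44, adjusted p = 0.166) passed with the replicate block (adjusted p = 0.0207). Ei24, a protein of the endoplasmic reticulum, had 11.67, 11.99 and 12.28 with empty vector and 12.37, 12.16 and 12.69 with wild type (0.42, adjusted p = 0.285, and 0.0467 with the block).

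The receptor genes Tnfrsf10b and Fas and the p53-induced gene Tp53i11 differed by 0.25, 0.10 and -0.63 with wild type, with SEs of 0.28, 0.46 and 0.37. Fas was 6.56 on all wild type arrays, but its SD (n = 3) was 0.75 with empty vector and 0.74 with R396Q, so its interval with wild type ran from -1.0 to 1.19. Aen, a nuclease of apoptosis, had 7.55, 7.55 and 7.60 with empty vector and 7.85, 7.55 and 7.92 with wild type (0.21, adjusted p = 0.287). Without wild type 2, Aen passed the test (adjusted p = 0.0424).

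The 4 repair genes split. Polk, a DNA polymerase that copies past damaged bases, had 8.65, 8.56 and 8.52 with empty vector, 9.08, 9.06 and 9.10 with wild type and 8.75, 8.66 and 8.73 with R396Q. It had the smallest spread of the genes that rose (SD of 0.02 to 0.07, n = 3). The rise with wild type was 1.42-fold (0.51, SE 0.04, limma adjusted p = 0.001) and passed without any 1 array. R396Q also lay above empty vector without overlap, by 0.14, which did not pass the test (adjusted p = 0.233).

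Xpc, which finds distorted DNA for nucleotide excision repair, was lower with wild type and higher with R396Q. Its log2 signal was 9.36, 9.55 and 9.37 with empty vector, 8.83, 8.77 and 8.81 with wild type and 10.03, 9.73 and 10.08 with R396Q. The 3 groups did not overlap with each other. It fell 1.54-fold with wild type (-0.62, SE 0.10, limma adjusted p = 0.0106). Its difference with R396Q was 0.52 (SE 0.10, interval 0.29 to 0.75, adjusted p = 0.0693), which passed without R396Q 2 (adjusted p = 0.0332). Rrm2b, a ribonucleotide reductase subunit that supplies nucleotides for repair, and Ddb2, a sensor of ultraviolet damage, differed by 0.19 and 0.20 with wild type. Neither passed the test (limma adjusted p = 0.439 and 0.535), and the arrays of Ddb2 overlapped in all 3 groups.

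With R396Q against empty vector, 0 of 29 members passed the limma test, while 1.23% of all clusters did, and 3 members had an unadjusted p under 0.05 (Xpc, Polk and Aen). The count was also 0 with the replicate block. With so small a share over all clusters, a count of 0 in 29 members is no result about them. The median difference was 0.02 over the members and -0.01 over all clusters, and the differences ran from -0.44 to 0.52. The arrays did not overlap in 3 members that were higher with R396Q (Ppm1d, Polk and Xpc) and 1 that was lower (Aen), 13.8% of the members against 14.1% of all clusters. The intervals of Eda2r, Plk2, Perp, Fas, Tnfrsf10b and Sesn2 reached beyond 1 on the log2 scale in 1 direction, so that differences of that size lie within the intervals of these genes. For Zmat3, Polk, Bbc3 and Fbxw7 the intervals stayed within -0.20 and 0.24.

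The comparison of R396Q with wild type sets the arrays of the GATA2 forms against each other. The Gata2 signal given above was lower on every R396Q array than on every wild type array. The form of GATA2, its level and the shifts in cell markers therefore cannot be told apart here. The comparison shares the wild type arrays with the first comparison and is no independent view of them. With R396Q, 6 of 29 members were lower than with wild type and passed the test (3.08% of all clusters did), and 2 were higher (2.67%). That was 27.6% of the members against 5.75% of all clusters, with a median difference of -0.39 over the members and 0.00 over all clusters. With the replicate block 12 were lower and 3 higher, where 13.1% of all clusters passed. The arrays did not overlap in 16 members that were lower and 3 that were higher, 65.5% against 20.6% of all clusters.

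The genes lower with R396Q than with wild type were Trp53inp1 (4.35-fold, limma adjusted p = 0.00371), Phlda3 (2.02-fold, 0.0139), Btg2 (2.17-fold, 0.048), Zmat3 (1.66-fold, 0.00625), Polk (1.29-fold, 0.0046) and Aen (1.37-fold, 0.0469). Those higher were Xpc (2.21-fold, 0.0017) and Dram1 (2.89-fold, 0.0335). Trp53inp1, Zmat3, Polk and Xpc passed without any 1 array. The call of Phlda3 was lost without wild type 1 or R396Q 2 (adjusted p up to 0.058). Those of Btg2 and Aen held in the fit without wild type 2 but in no other with 1 array left out (up to 0.153 and 0.147), and that of Dram1 held without empty vector 2 or 3 but in no other (up to 0.114). The Btg2 call was also lost with only the arrays compared (0.117). Without 1 array at a time the count of members called fell to 4 at the lowest, without wild type 1 or R396Q 2, and to 5 in the fits that left out empty vector 1, wild type 3 and R396Q 1 or 3.

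**Figure D3:**
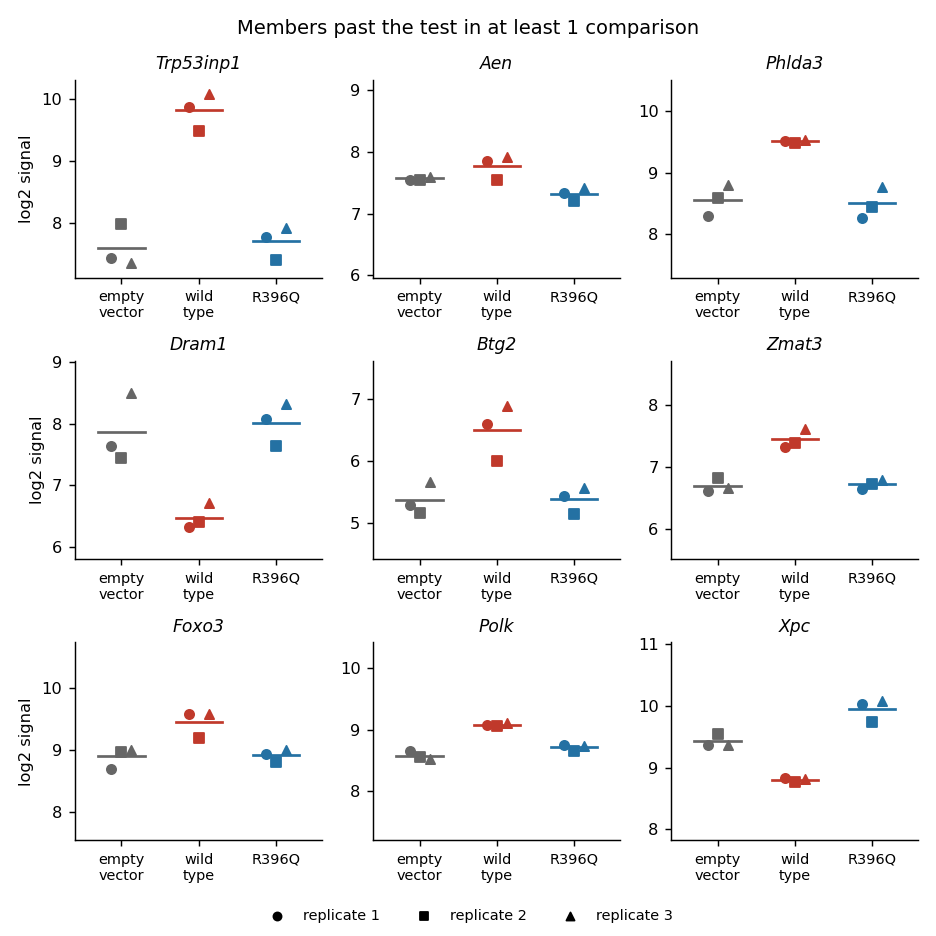
Log2 signal (vertical axis, the same span of 3.2 in each panel) of the 9 members past the limma test in at least 1 comparison, by group, with a point per array, its shape for the replicate number, and a line at the mean of 3 arrays. Wild type stands above empty vector and R396Q in Trp53inp1, Phlda3, Btg2, Zmat3, Foxo3 and Polk and below both in Dram1 and Xpc, while R396Q is the highest group in Xpc.

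Aen had 7.34, 7.21 and 7.41 with R396Q, below all arrays of both other groups. Its call was also lost with only the arrays compared, with the trend and robust options of limma and after median subtraction (adjusted p up to 0.142). Foxo3 was 0.54 lower with R396Q than with wild type on average and did not pass the test (limma adjusted p = 0.0698), though it did without wild type 2 (0.0259). Eda2r was 3.14-fold lower with R396Q (-1.65, SE 0.39) and just missed the threshold (adjusted p = 0.0589, and 0.0314 with the block). Mdm4 passed when empty vector 3 was left out (0.0391). Also with the block, Mdm4 (-0.66, adjusted p = 0.036), Ccng1 (-1.0, 0.00196), Tnfrsf10b (-0.62, 0.0341), Ei24 (-0.55, 0.0278) and Sesn2 (-0.57, 0.0268) were lower and Sesn1 (0.51, 0.0261) was higher with R396Q.

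Other genes of the pathway were taken from lists made by function. Of 23 further p53 targets, 5 rose with wild type (21.7%, against 8.99% of all clusters called) and none fell, with a median of 0.33. With the replicate block 7 rose, where 17.4% of all clusters passed. Cdkn1a, which encodes the cell cycle inhibitor p21, had 13.91, 13.66 and 14.17 with empty vector, 15.49, 15.31 and 15.81 with wild type and 14.38, 14.64 and 14.66 with R396Q. The 3 groups did not overlap, and wild type stood 3.07-fold above empty vector (1.62, SE 0.17, limma adjusted p = 0.00254). R396Q lay 0.64 above empty vector (SE 0.17, limma adjusted p = 0.176) and 1.97-fold below wild type (adjusted p = 0.0229). The latter call was lost when wild type 1, wild type 3 or any R396Q array was left out (up to 0.0844), and with only the arrays compared (0.053). With R396Q against empty vector, 0 of 23 passed in limma (4 at an unadjusted p under 0.05), with a median of 0.12. Over all clusters 1.23% passed, so this 0 is no result about the list.

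The other further targets that rose with wild type were Steap3, an iron reductase (2.87-fold, limma adjusted p = 0.00522), Psrc1, a spindle protein (2.81-fold, 0.0106), Ddit4, an inhibitor of mTORC1 (1.97-fold, 0.00941), and Lif, a cytokine (1.67-fold, 0.0359). Lif was named after its values were seen, and with 1 array left out its call held without wild type 2 or R396Q 1 but in no other fit (up to 0.111), and it was lost with only the arrays compared and with array weights. That of Psrc1 was lost with only the arrays compared. Steap3 also serves iron uptake in red cell precursors as background, and the erythroid markers were higher on the same arrays, whose part in its rise was not tested. Against R396Q, 3 further targets were lower with R396Q (Cdkn1a, Steap3 and Psrc1) and 1 was higher, Cyfip2 (1.56-fold, adjusted p = 0.0384), also named after its values were seen. These were 17.4% of the list, against 5.75% of all clusters. With the replicate block 6 were lower and 1 was higher, where 13.1% of all clusters passed. The Cyfip2 call held when empty vector 2 or 3 was left out but for no other array (up to 0.107), and it was lost with only the arrays compared and after quantile normalization. The Psrc1 call held when empty vector 1, empty vector 3 or wild type 2 was left out but for no other array (up to 0.107), and it was lost with only the arrays compared (0.051).

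**Figure D4:**
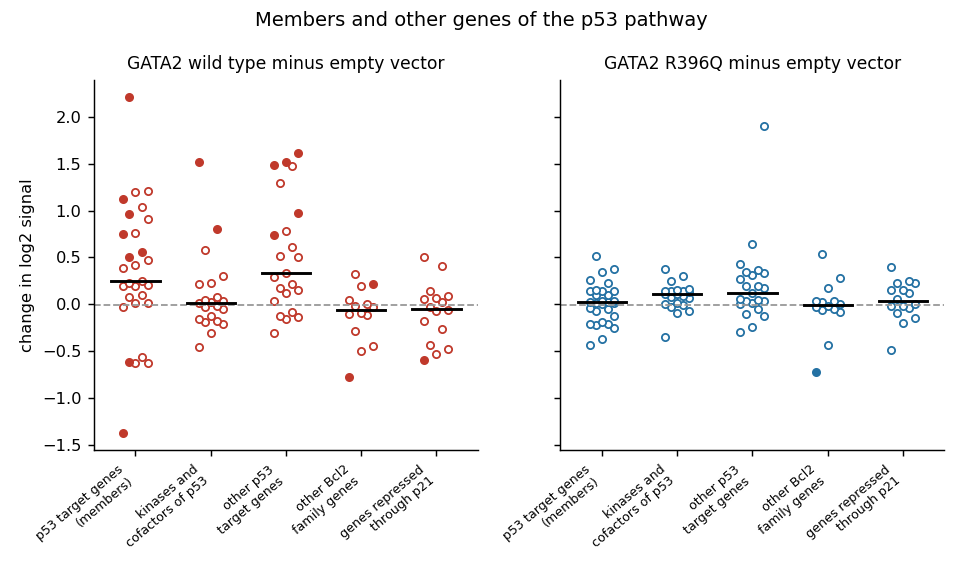
Difference in log2 signal from empty vector for the members and for 4 other lists of p53 pathway genes, with wild type in the left panel and R396Q in the right, a point per gene, filled where limma's adjusted p was under 0.05, a black line at the median of the list and a dashed line at the median of all clusters. With wild type the medians are 0.25 for the members and 0.33 for the other p53 targets, and between -0.06 and 0.01 for the remaining lists.

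Of 21 kinases and cofactors that act on p53, 2 rose with wild type, with a median of 0.01. That is 9.52% of the list, close to the 8.99% of all clusters called, and the count is no result about the list. The genes were Hipk2, a kinase that primes p53 for cell death (2.86-fold, limma adjusted p = 0.0468), and Rchy1, a ubiquitin ligase that degrades p53 (1.74-fold, 0.0258). The Hipk2 call held when R396Q 3 was left out but for no other array (up to 0.135), and was lost with array weights. The Rchy1 call held for empty vector 2, wild type 2, R396Q 1 and R396Q 3 left out but for no other array (up to 0.0815), and was lost with only the arrays compared. None passed with R396Q against empty vector or wild type (0 and 0 in limma, with 0 and 7 at an unadjusted p under 0.05). Over all clusters 1.23% and 5.75% passed, so a count of 0 in a list this short is no result about it. With the replicate block 3 were higher and 2 lower than with wild type, where 13.1% of all clusters passed.

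Of 14 other Bcl2 family genes, which set the threshold for mitochondrial cell death, 1 fell and 1 rose with wild type (14.3%, against 8.99% of all clusters), with a median of -0.06. With the replicate block 2 rose and 1 fell, and 1 was higher and 1 lower with R396Q than with wild type, where none passed without it (0 in limma, 2 at an unadjusted p under 0.05). Over all clusters 5.75% passed between the GATA2 forms without the block, and 13.1% with it. Bcl2l11, which encodes the BH3-only protein Bim, had 7.45, 7.72 and 7.71 with empty vector, 6.77, 6.85 and 6.92 with wild type and 6.82, 6.87 and 7.03 with R396Q. It fell 1.71-fold with wild type (limma adjusted p = 0.00359) and 1.65-fold with R396Q (adjusted p = 0.0188). The latter call was lost without empty vector 3 or R396Q 1 or 2 (up to 0.0872), with only the arrays compared and after quantile normalization. The forms differed by 0.06 (SE 0.09) in this gene. Bik, a further BH3-only gene, was 1.17-fold higher with wild type (adjusted p = 0.0431), a call that held for none of the 9 arrays left out (up to 0.107) and was lost under 5 other settings.

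Of 16 cell cycle genes that p53 represses through p21, 1 fell with wild type and none rose (6.25%, against 8.99% of all clusters), with a median of -0.05. With the replicate block 3 fell and 1 rose. With R396Q against wild type none passed (0 in limma, 1 at an unadjusted p under 0.05), while 5.75% of all clusters did. With the block 3 were higher, where 13.1% of all clusters passed. The gene that fell without the block was Mybl2, a transcription factor of proliferating cells, which fell 1.52-fold (limma adjusted p = 0.0294), a call that held for wild type 2, wild type 3, R396Q 2 and R396Q 3 left out but for no other array (up to 0.0899), and was lost with only the arrays compared. With R396Q against empty vector the list had a median of 0.03 and no call (0 of 16 in limma, 0 at an unadjusted p under 0.05, and 1 lower with the replicate block). Over all clusters 1.23% passed without the block, so this 0 is no result about the list.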

How the data were processed

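The deposited table gives 1 log2 signal per transcript cluster and array, which the authors made with Expression Console of Affymetrix by RMA, a method that combines a cluster's probes after normalization between arrays (per the submitters' processing notes, with no version). Some clusters have tied values, dim ones and others. Per the labels the array was the Mouse Exon 1.0 ST, but the cluster identifiers are of a later type. All 9 columns were used.

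Clusters took symbols from the array annotation, updated by gene identifier (19483 of 21072 clusters with 1 gene, 899 with several and 690 with none). A cluster whose several names belong to 1 gene identifier was kept as 1 gene (579 clusters, Pidd1 among them). For a symbol with several clusters (Fas) the one with the highest mean was used.

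Differences were tested with limma 3.58.1 in R 4.3.3, with 1 mean per group over 9 arrays, 6 residual and 0.956 prior degrees of freedom, 2-sided tests and Benjamini-Hochberg adjustment over all 21072 clusters. The fit was tested on simulated data with independent arrays, so that test does not cover the shared deviations of same-numbered arrays given below. With 3 arrays a group, precision is limited by their number.

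Arrays with the same replicate number in different groups had deviations from their group means that correlated at r of 0.451 to 0.693 (9 pairs, across clusters), and different numbers at -0.537 to -0.09 (18 pairs). The labels do not say what a number shares. Values or counts with the number as a block are given where they change a call of a member or move a pathway list's count.

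Members and lists were chosen with earlier results of these data known. Values on every array are given for members called in at least 1 comparison and for Mdm2, Bbc3 and Pmaip1, and for others where a result turns on them. Of each pathway list up to 4 called genes with the smallest p are named, with exceptions stated. Promoter sequences were used only as letters, in a table checked to run along the gene's strand.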

Additional observations from a re-analysis of the deposited data

How the results depend on the processing

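Each count of members called was recomputed with the replicate number as a block, with only the groups compared, with trend and robust options, with array weights, after median subtraction or quantile normalization, without the dimmest 30% or 50% of clusters, with clusters of 1 symbol averaged, and without each array in turn. For wild type against empty vector, 8 members passed, 13 with the replicate block, 5 with only the groups compared and 5 to 8 without 1 array. For R396Q against empty vector the count was 0, and 0 to 1 without 1 array, the 1 being Xpc. For R396Q against wild type it was 8, 15 with the replicate block and 4 to 8 without 1 array. All other settings kept these counts within 1.5 times. The 8 calls of each of these comparisons held with the block, and no call of a member changed direction under any setting run. Median subtraction and quantile normalization moved the median over all clusters by at most 0.05. Btg2 and Bbc3 lay below the median signal, where a change is least well measured.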

Other observations

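Arrays that share a replicate number tended to be high together in the p53 target genes. This is no trait of these genes, since same-numbered arrays deviated together across all clusters (r of 0.451 to 0.693). The counts that follow were not made over all clusters. In 15 of the 29 measured members the same number gave the highest array in all 3 groups, and in 12 of these it was number 3, among them Ccng1, Perp, Sesn2, Btg2, Phlda3 and Dram1. Number 2 was highest in Mdm4 and Sesn1, and number 1 in Ddb2. In 9 members the same number gave the lowest array in all 3 groups. Tp53i11, Sesn1 and Ddb2 were lowest on number 3 in all groups. A second cluster carries the symbol Fas, with a mean log2 signal of 5.01 and no separation of the groups, at 4.92 to 5.58 with empty vector, 4.46 to 5.33 with wild type and 4.97 to 5.05 with R396Q.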
